A study of Homo sapiens with 18 samples.

Results

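The genes that build cholesterol and fatty acids were followed across 18 RNA-seq libraries of PEO1, an established human ovarian cancer cell line. Members were chosen by symbol from a list of 33 genes. Of these, 19 act in sterol synthesis and uptake, 4 regulate SREBP and 10 act in fatty acid synthesis. The list was chosen with earlier results of these data known, so member counts set beside all rows are a description. A row of the deposited count table was taken as a member where its Ensembl transcripts belong to that gene, which found 32 of the 33 among 57736 rows. ACACA was not analysed here. All 32 passed the filter on low counts, as did 15318 rows in all. The 6 groups of 3 libraries were cells transfected with sip53, an siRNA against p53, and collected at 0, 2 or 8 h of 10 nM E2 (estradiol), and cells transfected with siControl and collected at the same times. Cells at 0 h received no E2, and every group, controls included, had first spent 48 hours in hormone-poor medium with charcoal-stripped serum and no phenol red. The labels name 1 knockdown reagent in 1 cell line, and the series title places the study in the question of how mutant p53 bears on the estrogen receptor. Nothing in the labels says that the 3 libraries of a group came from separate cultures, so p-values measure the spread between these libraries, which may be technical.

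Cholesterol is made from acetyl-CoA through mevalonate and isoprenoid units to squalene, which is closed into a ring and then trimmed to cholesterol in the endoplasmic reticulum. Fatty acids start from the same acetyl-CoA, which reaches the cytosol from citrate through ACLY or from acetate through ACSS2, and the chain is assembled by FASN, lengthened by elongases and desaturated. The SREBP transcription factors encoded by SREBF1 and SREBF2 are carried by SCAP out of the endoplasmic reticulum when sterols are scarce and are held there with INSIG1 when sterols are plentiful, and their targets include most enzymes of both pathways. In breast cancer cells, some mutant p53 proteins are known to act with SREBPs at genes of the mevalonate pathway.

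The libraries held between 9225939 and 11307199 counts in sip53 cells and between 7542457 and 10132570 counts in siControl cells, so depth moved with the knockdown, and its part in the results was not tested. Levels are given as CPM, the count as a share of its library's TMM-scaled total, and fold changes are log2 values of sip53 over siControl, or of later over earlier time, with their standard error (SE). A change was called at an adjusted p under 0.05 in edgeR's quasi-likelihood test, with Benjamini-Hochberg adjustment over all 15318 rows. Of 14 epithelial and ovarian carcinoma markers, 13 passed the filter, and their summed level was 7240 to 8580 CPM in sip53 cells and 5870 to 6530 CPM in siControl cells. That marker sum moved with the knockdown as well, and its part in the results was not tested. FOLR1, the marker that did not pass, reached at most 0.19 CPM. Fibroblast markers summed to at most 26.5 CPM in sip53 cells and 30.1 CPM in siControl cells, with COL1A2, COL3A1, DCN and LUM at 0. FAP had 7.19 to 17 CPM and COL1A1 4.63 to 13.3 CPM over the 18 libraries. Leukocyte markers summed to at most 17.1 CPM in sip53 cells and 20.3 CPM in siControl cells, with PTPRC, CD3E, CD3D, MS4A1 and NKG7 at 0. CD14 had 4 to 9.11 CPM and CD68 5 to 11.4 CPM over the 18 libraries. Of the remaining lists, the endothelial one reached 1.07 CPM in sip53 cells and 0.915 CPM in siControl cells, and those of adipocytes, hepatocytes and steroid-producing cells stayed below 1 CPM. One library stood apart: siControl at 0 h, replicate 2, had the fewest counts and a mean sterol member level of 5.14 on the log2 CPM scale, against 5.48 and 5.35 in the other 2 libraries of its group. In bulk RNA, a change in RNA per cell and a change in the share of cells that make it cannot be told apart.

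The knockdown comparison averaged over the 3 times asked how the lipid genes stood after p53 was targeted, whatever the E2 time. Most of the sterol pathway was higher in sip53 cells: 15 of 19 sterol members rose and none fell, with a median log2 fold change of 0.45. Among the SREBP regulators 3 of 4 rose and none fell (median 0.32). Fatty acid synthesis was split, with 6 of 9 members higher and 2 lower (median 0.32), and the largest change of any member in either direction was the fall of ACLY. Over all 15318 rows, 16.1% were called higher and 18.5% lower, with a median of 0.01. With a trend on gene length and GC content removed, 2967 rows were called higher and 2091 lower, against 2465 and 2830 without that step. Under that setting 25 members were called higher and 1 lower. Without siControl 0 h replicate 2, 14 sterol members, 3 regulators and 6 fatty acid members were called higher, as were 15.6% of all rows.

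**Figure D1:**
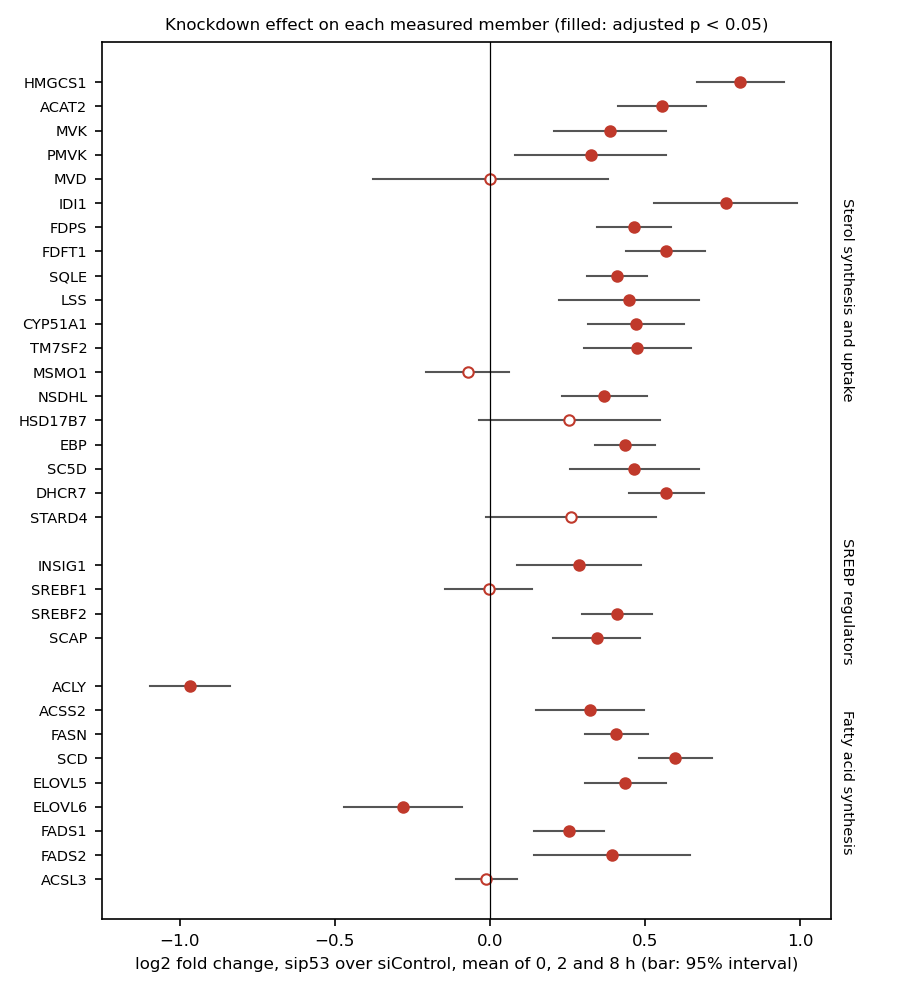
Log2 fold change of sip53 over siControl, averaged over 0, 2 and 8 h, for the 32 measured members (points) with 95% intervals (bars); filled points passed an adjusted p of 0.05. In the sterol block 15 of 19 points are filled and lie right of 0, while ACLY lies at -0.97.

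The entry steps of the sterol pathway join acetyl-CoA units, and both measured enzymes rose. HMGCS1, which makes HMG-CoA, was the sterol member with the largest rise. HMGCS1 had 172, 138 and 167 CPM in sip53 cells at 0 h, against 98.9, 72.1 and 91.6 CPM in siControl cells. The values at 2 h were 149, 147 and 154 CPM in sip53 cells and 101, 92.04 and 94.9 CPM in siControl cells, and those at 8 h were 129, 137 and 163 CPM in sip53 cells and 76.1, 81.4 and 69.3 CPM in siControl cells. Every sip53 library lay above every siControl library, with a gap at each time. The averaged log2 fold change was 0.81 ± 0.07 (SE, adjusted p = 2.24e-08), a rise to 1.75 times the siControl level. ACAT2, the cytosolic thiolase that comes before it, followed. The sip53 libraries had 92.9, 81.5 and 95.99 CPM at 0 h, 99.6, 92.3 and 81.3 CPM at 2 h and 83.6, 80.01 and 74.9 CPM at 8 h. In the siControl libraries the level was 74.7, 54.7 and 59.01 CPM at 0 h, 62.7, 60.2 and 54.9 CPM at 2 h and 59.8, 52.8 and 52.96 CPM at 8 h. The arms came close to touching but did not overlap, and ACAT2 rose by 0.56 ± 0.07 (SE, adjusted p = 2.59e-06). ACAT2 shares exon sequence on the opposite strand with TCP1 and SOD2, which changed by 0.36 and 0.30 in the same comparison, and the sources used here do not say whether counting used the strand, so its value is uncertain.

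Mevalonate is then phosphorylated and decarboxylated to isoprenoid units. MVK, the first kinase, rose by 0.39 ± 0.09 (SE, adjusted p = 0.00141), although at 0 h its sip53 libraries (33.6, 49.5 and 48.1 CPM) overlapped its siControl libraries (34.6, 38.4 and 29.2 CPM). MVK shares exon sequence on the opposite strand with MMAB, which changed by 0.27. PMVK, the second kinase, had 0.33 ± 0.12 (SE, adjusted p = 0.0349), and this call was the least stable of the sterol set. It held in 10 of the 18 fits that each left out 1 library, the adjusted p reached 0.0747 without siControl 2 h replicate 2, and it was 0.195 once the trend on length and GC was taken out. Leaving out sip53 0 h replicate 3, sip53 2 h replicate 1 or 3, sip53 8 h replicate 1 or 2, siControl 0 h replicate 2 or siControl 8 h replicate 1 gave adjusted p values between 0.0515 and 0.0735. MVD, the decarboxylase, was scarce at 1.995 to 6.22 CPM in sip53 cells and 2.67 to 5.61 CPM in siControl cells, and was not called. Its log2 fold change was 0.00 with a 95% interval of -0.38 to 0.38.

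The isomerase and the condensing enzymes rose together. IDI1, which converts one isoprenoid unit into the other, had 35.4, 43.5 and 47.6 CPM in sip53 cells (lowest, median and highest of 9) and 11.6, 26.4 and 29.2 CPM in siControl cells. The 2 arms did not overlap, the lowest siControl value being that of the library that stood apart, and IDI1 rose by 0.76 ± 0.11 (SE, adjusted p = 1.83e-05). FDPS joins the units to farnesyl diphosphate. At 0 h the 3 sip53 libraries held 175, 185 and 195 CPM, against 151, 135 and 126 CPM in siControl. At 2 h FDPS stood at 172, 177 and 195 CPM in sip53 cells and 130.1, 123 and 145 CPM in siControl cells, and at 8 h at 178, 154 and 169.9 CPM in sip53 cells and 117, 108 and 126 CPM in siControl cells. There was again no overlap between the arms, and FDPS rose by 0.46 ± 0.06 (SE, adjusted p = 2.92e-06). FDFT1, squalene synthase, commits farnesyl diphosphate to sterols. Without E2, FDFT1 measured 101, 96.6 and 108 CPM in sip53 cells and 73.1, 57.9 and 59.6 CPM in siControl cells. With E2 it measured 106, 111 and 102 CPM in sip53 cells and 83.5, 82.8 and 68.9 CPM in siControl cells at 2 h, then 81.95, 89.7 and 94.99 CPM in sip53 cells and 57.5, 60.1 and 59.8 CPM in siControl cells at 8 h. Within each time the sip53 libraries were all higher, while the lowest sip53 value at 8 h lay among the siControl values at 2 h. FDFT1 rose by 0.57 ± 0.06 (SE, adjusted p = 5.5e-07).

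Squalene oxidation and the first ring steps were also higher where called, and MSMO1 was not called. SQLE encodes squalene epoxidase. SQLE had 325, 310.2 and 343 CPM in sip53 cells at 0 h, against 246, 233 and 243 CPM in siControl cells. The values at 2 h were 299, 303 and 310 CPM in sip53 cells and 249, 251 and 263 CPM in siControl cells, and those at 8 h were 291, 319 and 299 CPM in sip53 cells and 219.5, 198 and 213 CPM in siControl cells. Every sip53 library was above every siControl library, and SQLE rose by 0.41 ± 0.05 (SE, adjusted p = 1.08e-06). LSS, which closes squalene into lanosterol, had 8.67, 11.1 and 12.3 CPM in sip53 cells and 6.35, 8.01 and 9.85 CPM in siControl cells, and rose by 0.45 ± 0.11 (SE, adjusted p = 0.00268). CYP51A1, the lanosterol demethylase, had 118, 141 and 168 CPM in sip53 cells and 70.3, 103 and 124 CPM in siControl cells, and rose by 0.47 ± 0.07 (SE, adjusted p = 4.48e-05). The arms of LSS and CYP51A1 overlapped when all times were pooled. The CYP51A1 row was named by the majority of its transcripts, and CYP51A1 shares same-strand exon sequence with genes that have no symbol. Its value is therefore uncertain. TM7SF2, a sterol reductase, rose by 0.48 ± 0.08 (SE, adjusted p = 0.000135); it shares exon sequence on the same strand with VPS51, whose log2 fold change was -0.05. MSMO1 starts the removal of the ring methyl groups. The sip53 libraries had 47.8, 43.2 and 46.3 CPM at 0 h, 49.97, 43.6 and 49.7 CPM at 2 h and 36.6, 42.2 and 48.1 CPM at 8 h. In the siControl libraries the level was 43.5, 45.7 and 47.2 CPM at 0 h, 49.8, 52.9 and 55.3 CPM at 2 h and 44.99, 48.2 and 41.4 CPM at 8 h. The arms overlapped at 0 and 8 h, and at 2 h the overlap was small. Its averaged log2 fold change was -0.07 with a 95% interval of -0.21 to 0.06, the only negative value among the 19 sterol members.

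The last steps turn the trimmed ring into cholesterol. NSDHL is the dehydrogenase of the methyl-removal step. At 0 h the 3 sip53 libraries held 84.1, 89.8 and 101 CPM, against 85.8, 69.7 and 61.3 CPM in siControl. At 2 h NSDHL stood at 84.03, 86.5 and 93.4 CPM in sip53 cells and 70.1, 61.2 and 72.00 CPM in siControl cells, and at 8 h at 83.5, 75.5 and 71.8 CPM in sip53 cells and 57.2, 59.3 and 59.5 CPM in siControl cells. The arms were apart at 2 and 8 h and overlapped at 0 h through siControl replicate 1, and NSDHL rose by 0.37 ± 0.07 (SE, adjusted p = 0.000182). EBP, the isomerase that moves the ring double bond, was also higher. Without E2, EBP measured 171, 184 and 189 CPM in sip53 cells and 128, 125 and 129.9 CPM in siControl cells. With E2 it measured 189, 187 and 182 CPM in sip53 cells and 141, 133 and 143 CPM in siControl cells at 2 h, then 159, 166 and 159 CPM in sip53 cells and 123, 123 and 125 CPM in siControl cells at 8 h. The 9 sip53 libraries lay above the 9 siControl libraries, and EBP rose by 0.44 ± 0.05 (SE, adjusted p = 4.31e-07). SC5D, a sterol desaturase, rose by 0.47 ± 0.10 (SE, adjusted p = 0.000997). DHCR7 is the last reductase of this branch. DHCR7 had 142, 133 and 135 CPM in sip53 cells at 0 h, against 94.8, 87.8 and 90.4 CPM in siControl cells. The values at 2 h were 130.1, 144 and 152 CPM in sip53 cells and 94.01, 93.98 and 106 CPM in siControl cells, and those at 8 h were 108, 120.3 and 113 CPM in sip53 cells and 70.04, 69.7 and 86.6 CPM in siControl cells. The lowest sip53 value, at 8 h, was just above the highest siControl value, at 2 h, and DHCR7 rose by 0.57 ± 0.06 (SE, adjusted p = 2.39e-07). HSD17B7, a keto-reductase of the same stretch, had a log2 fold change of 0.26 (95% interval -0.03 to 0.55) and was not called. It has a near-identical pseudogene, HSD17B7P2, with 795 counts over the 18 libraries against 2401 for HSD17B7 itself, so its value is uncertain. STARD4, a sterol carrier that stands for uptake and movement in this list, had 0.26 (95% interval -0.01 to 0.54) and was not called. Across the whole sterol set, 7 members had all 9 sip53 libraries above all 9 siControl libraries, a pattern held by 1.56% of all rows.

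**Figure D2:**
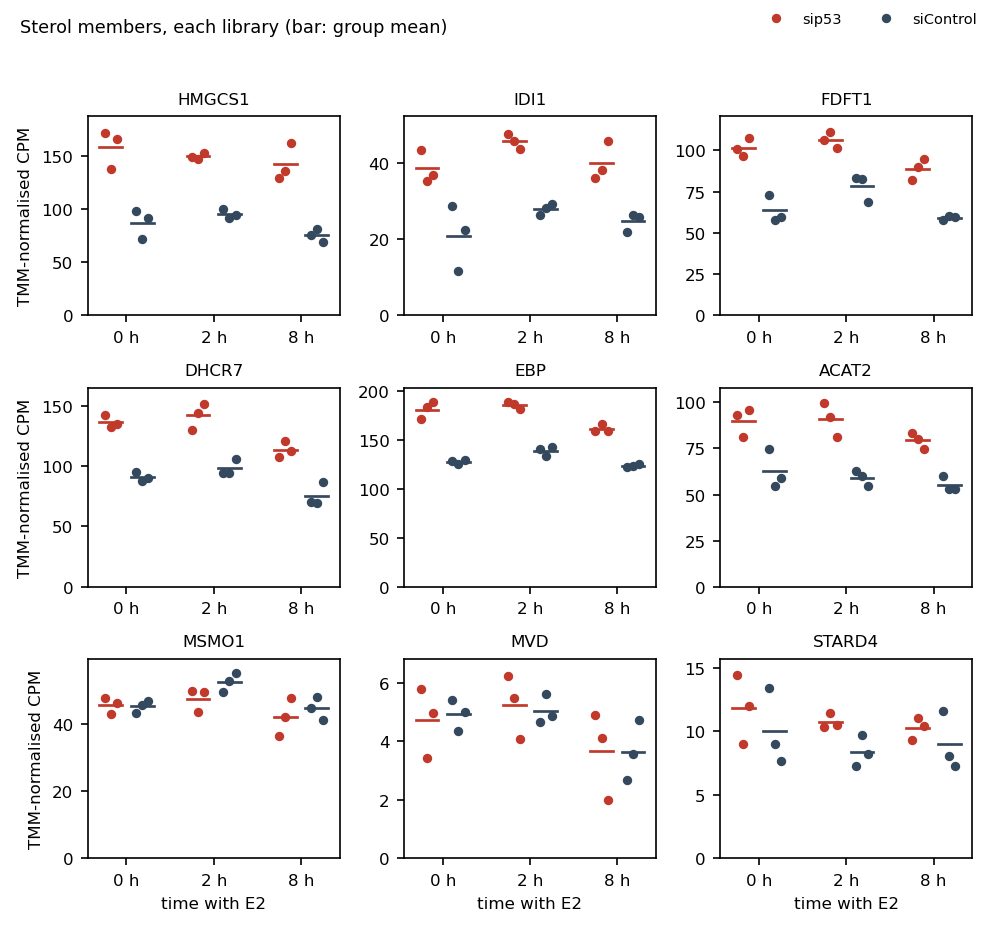
TMM-normalised CPM of 9 sterol members in each library (points) by time with E2, with sip53 left of siControl and bars at the group means of 3 libraries. HMGCS1, IDI1, DHCR7, EBP and ACAT2 show the sip53 points above all siControl points, whereas MSMO1, MVD and STARD4 overlap.

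Promoter sequences were compared because most sterol members were higher together. RefSeq windows on GRCh38.p14, from 250 bases before to 50 bases after each annotated start, were matched to 28 of the 32 measured members by symbol and gave 36 windows of 300 bases. ACAT2, FDFT1, SQLE and FASN had no window. Searched on both strands, the NF-Y box CCAAT was in 16 of 21 sterol windows (76.2%), in 69.4% of the windows of all members and in 34.8% of the windows of the genes tested. By gene, 14 of 16 sterol members held the box, among them MSMO1, MVD, HSD17B7 and STARD4, which were not called in the averaged knockdown. The sterol members with a window but no box were CYP51A1 and PMVK, which were called higher. The Sp1 letters GGGCGG were in 90.5% of sterol windows and in 65.4% of windows of the genes tested. The SREBP site TCACNCCA was in the windows of MSMO1, MVK and SREBF2, which is 8.3% of member windows against 3.41% for the genes tested. The E-box CACGTG was in 16.7% of member windows and in 9.21% for the genes tested, and the palindromic estrogen response element was in 0 of the 36 windows and in 0.0128% for the genes tested. The SREBP site ends in CCA, the letters that open the NF-Y box, so matches of that pair can overlap. A match is a description of the letters only. HMGCS1 (chr5:43313363-43313662, minus strand) and DHCR7 (chr11:71448344-71448643, minus strand) are printed, 1 of 2 annotated windows each, as sterol members with 2 NF-Y boxes, in capitals on either strand. The boxes begin 155 and 100 bases before the start in HMGCS1 and 94 and 48 bases before it in DHCR7.
HMGCS1: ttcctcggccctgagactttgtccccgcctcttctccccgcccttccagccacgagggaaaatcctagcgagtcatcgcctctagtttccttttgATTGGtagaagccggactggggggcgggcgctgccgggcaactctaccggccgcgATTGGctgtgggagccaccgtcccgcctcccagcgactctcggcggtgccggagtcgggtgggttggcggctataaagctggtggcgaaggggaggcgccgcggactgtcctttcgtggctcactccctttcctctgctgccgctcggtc
DHCR7: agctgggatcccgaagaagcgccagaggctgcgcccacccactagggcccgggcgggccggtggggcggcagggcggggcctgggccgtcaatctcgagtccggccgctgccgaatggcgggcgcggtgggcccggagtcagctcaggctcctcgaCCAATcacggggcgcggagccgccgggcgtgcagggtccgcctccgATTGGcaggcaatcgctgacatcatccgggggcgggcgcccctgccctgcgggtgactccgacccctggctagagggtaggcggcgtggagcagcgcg

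The regulators of the pathway did not move as one. SREBF2, which encodes the SREBP that favours sterol genes, was higher throughout. The sip53 libraries had 116, 106 and 109.8 CPM at 0 h, 104, 112 and 121 CPM at 2 h and 97.4, 103 and 108 CPM at 8 h. In the siControl libraries the level was 88.01, 88.9 and 77.2 CPM at 0 h, 85.04, 81.2 and 85.9 CPM at 2 h and 71.7, 78.9 and 78.4 CPM at 8 h. No sip53 library fell to the level of any siControl library, and SREBF2 rose by 0.41 ± 0.05 (SE, adjusted p = 6.3e-06). SREBF1, which encodes the SREBP that favours fatty acid genes, had 28.3 to 33.8 CPM in sip53 cells and 27.6 to 33.1 CPM in siControl cells. Its log2 fold change was -0.00 with a 95% interval of -0.14 to 0.14, so SREBF1 was not called; its row shares opposite-strand exon sequence with RAI1, which changed by 0.42. SCAP encodes the escort protein. At 0 h the 3 sip53 libraries held 111, 113 and 131 CPM, against 77.3, 97.1 and 77.6 CPM in siControl. At 2 h SCAP stood at 95.9, 113 and 124 CPM in sip53 cells and 84.4, 93.6 and 93.5 CPM in siControl cells, and at 8 h at 96.8, 100.2 and 87.7 CPM in sip53 cells and 81.5, 71.3 and 86.97 CPM in siControl cells. The sip53 libraries were higher at each time, while the arms overlapped across times. SCAP rose by 0.34 ± 0.07 (SE, adjusted p = 0.000408).

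INSIG1, which retains the SCAP and SREBP complex and is itself a target of SREBP, varied between replicates. Without E2, INSIG1 measured 199, 118 and 134 CPM in sip53 cells and 130.3, 85.5 and 107 CPM in siControl cells. With E2 it measured 124, 128 and 113 CPM in sip53 cells and 128, 108 and 113 CPM in siControl cells at 2 h, then 75.99, 111 and 85.5 CPM in sip53 cells and 72.6, 78.5 and 68.1 CPM in siControl cells at 8 h. At 0 h 1 sip53 library stood well above the other 2, and the arms overlapped at each time. The averaged log2 fold change was 0.29 ± 0.10 (SE, adjusted p = 0.0242). Without sip53 0 h replicate 1 it was 0.21 (adjusted p = 0.0559), and without sip53 8 h replicate 2 it was 0.23 (adjusted p = 0.0597), so the call needed both libraries. The promoters of SREBF2 (chr22:41832855-41833154, plus strand) and INSIG1 (chr7:155297628-155297927, plus strand) are printed as windows with different motifs. Capitals mark the SREBP site and 1 NF-Y box in SREBF2, and 1 NF-Y box and the E-box in INSIG1.
SREBF2: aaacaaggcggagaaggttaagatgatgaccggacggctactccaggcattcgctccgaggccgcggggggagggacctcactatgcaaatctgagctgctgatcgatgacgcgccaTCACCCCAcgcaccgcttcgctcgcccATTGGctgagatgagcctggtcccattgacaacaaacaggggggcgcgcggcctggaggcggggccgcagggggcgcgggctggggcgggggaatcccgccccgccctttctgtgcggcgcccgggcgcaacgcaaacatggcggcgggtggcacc
INSIG1: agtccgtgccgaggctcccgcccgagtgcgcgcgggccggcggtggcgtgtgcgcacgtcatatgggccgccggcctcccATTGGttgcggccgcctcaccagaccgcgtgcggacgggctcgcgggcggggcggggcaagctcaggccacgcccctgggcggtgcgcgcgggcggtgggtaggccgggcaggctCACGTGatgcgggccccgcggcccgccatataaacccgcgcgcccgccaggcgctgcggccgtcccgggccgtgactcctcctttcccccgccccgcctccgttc

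**Figure D3:**
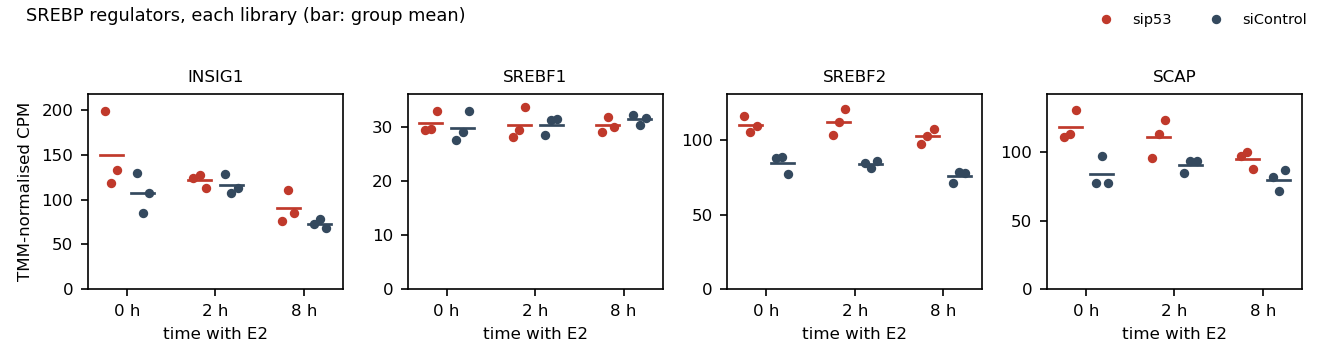
TMM-normalised CPM of the 4 SREBP regulators in each library (points) by time with E2, with sip53 left of siControl and bars at the group means of 3 libraries. SREBF2 is separated at each time, SREBF1 overlaps at each time, and INSIG1 is lowest in both arms at 8 h.

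Fatty acid synthesis divided at its first step. ACLY, which splits citrate into cytosolic acetyl-CoA, was lower in sip53 cells by the largest margin of any member. ACLY had 109, 115 and 119 CPM in sip53 cells at 0 h, against 264, 197 and 229 CPM in siControl cells. The values at 2 h were 125, 113 and 118 CPM in sip53 cells and 288, 228 and 234 CPM in siControl cells, and those at 8 h were 118, 117 and 124 CPM in sip53 cells and 195, 220.4 and 215 CPM in siControl cells. All 9 sip53 libraries lay below all 9 siControl libraries, as in 1.63% of all rows. ACLY fell by 0.97 on the log2 scale (SE 0.06, adjusted p = 3.93e-10), to 0.512 of the siControl level. ACSS2, which makes acetyl-CoA from acetate instead, was higher on average. The sip53 libraries had 27.4, 35.00 and 36.6 CPM at 0 h, 28.5, 31.2 and 35.2 CPM at 2 h and 37.9, 31.7 and 34.96 CPM at 8 h. In the siControl libraries the level was 26.3, 35.03 and 23.8 CPM at 0 h, 20.6, 22.1 and 21.9 CPM at 2 h and 30.96, 29.7 and 30.5 CPM at 8 h. The arms were apart at 2 and 8 h and overlapped at 0 h, where siControl replicate 2 matched the sip53 values. ACSS2 rose by 0.32 ± 0.08 (SE, adjusted p = 0.00436).

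The synthase and the first desaturase rose. FASN is the fatty acid synthase that builds the chain. At 0 h the 3 sip53 libraries held 754, 711 and 777 CPM, against 653, 543 and 568 CPM in siControl. At 2 h FASN stood at 718, 714 and 749.8 CPM in sip53 cells and 571, 523 and 539.5 CPM in siControl cells, and at 8 h at 625, 576 and 653 CPM in sip53 cells and 445, 449 and 455 CPM in siControl cells. The arms were separate at each time but overlapped across times, and both were lowest at 8 h. FASN rose by 0.41 ± 0.05 (SE, adjusted p = 1.86e-06). SCD, which puts the first double bond into the finished chain, rose more than any other fatty acid member. Without E2, SCD measured 325, 330.3 and 375 CPM in sip53 cells and 225, 174 and 234 CPM in siControl cells. With E2 it measured 346, 367 and 367 CPM in sip53 cells and 248, 236 and 255 CPM in siControl cells at 2 h, then 276, 293 and 284 CPM in sip53 cells and 187, 199.9 and 198 CPM in siControl cells at 8 h. All 9 sip53 libraries were above all 9 siControl libraries, and the log2 fold change was 0.60 ± 0.06 (SE, adjusted p = 9.77e-08). The promoters of SCD (chr10:100346983-100347282, plus strand) and ACLY (chr17:41918973-41919272, minus strand, 1 of 2 annotated windows) are printed as the fatty acid members that changed most in opposite directions. Each holds 2 NF-Y boxes, in capitals on either strand.
SCD: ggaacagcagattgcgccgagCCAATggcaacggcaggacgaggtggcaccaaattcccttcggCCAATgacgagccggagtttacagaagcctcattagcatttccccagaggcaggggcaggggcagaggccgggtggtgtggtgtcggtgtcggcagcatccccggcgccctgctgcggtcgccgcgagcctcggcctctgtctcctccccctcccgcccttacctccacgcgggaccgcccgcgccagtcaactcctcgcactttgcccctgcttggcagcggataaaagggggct
ACLY: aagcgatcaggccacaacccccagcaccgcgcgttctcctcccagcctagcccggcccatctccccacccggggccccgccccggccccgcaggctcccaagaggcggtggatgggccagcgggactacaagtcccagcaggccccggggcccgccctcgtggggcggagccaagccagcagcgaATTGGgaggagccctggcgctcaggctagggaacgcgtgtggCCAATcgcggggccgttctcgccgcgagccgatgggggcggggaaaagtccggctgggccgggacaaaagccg

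Elongases and the desaturases of polyunsaturated chains went different ways. ELOVL5, an elongase of polyunsaturated chains, was higher. ELOVL5 had 61.5, 64.01 and 64.99 CPM in sip53 cells at 0 h, against 41.95, 40.8 and 40.8 CPM in siControl cells. The values at 2 h were 67.8, 61.2 and 68.7 CPM in sip53 cells and 46.6, 46.4 and 57.6 CPM in siControl cells, and those at 8 h were 60.00, 48.8 and 54.4 CPM in sip53 cells and 42.8, 42.9 and 47.4 CPM in siControl cells. The arms were apart at each time, by the least at 8 h, and ELOVL5 rose by 0.44 ± 0.06 (SE, adjusted p = 1.67e-05). ELOVL6, the elongase of saturated chains, was called lower. The sip53 libraries had 25.5, 25.1 and 18.9 CPM at 0 h, 22.1, 24.1 and 19.1 CPM at 2 h and 22.2, 23.4 and 18.9 CPM at 8 h. In the siControl libraries the level was 27.2, 24.6 and 25.3 CPM at 0 h, 24.6, 34.7 and 30.4 CPM at 2 h and 30.03, 22.3 and 23.2 CPM at 8 h. The arms were apart at 2 h and overlapped at 0 and 8 h, and the averaged log2 fold change was -0.28 ± 0.09 (SE, adjusted p = 0.0213). That call held in 13 of 18 fits with 1 library left out. The adjusted p lay between 0.0526 and 0.0645 without sip53 replicate 3 of 0, 2 or 8 h, siControl 2 h replicate 2 or siControl 8 h replicate 1, and taking out the length and GC trend gave a log2 fold change of -0.12 (adjusted p = 0.287). FADS1 and FADS2 encode the desaturases of polyunsaturated chains. At 0 h the 3 sip53 libraries held 237, 219 and 263 CPM, against 202, 209 and 189 CPM in siControl. At 2 h FADS1 stood at 229, 258 and 256 CPM in sip53 cells and 214, 199 and 205 CPM in siControl cells, and at 8 h at 201, 221 and 197 CPM in sip53 cells and 160.3, 190.1 and 176 CPM in siControl cells. Within each time the sip53 libraries were higher, and across times the arms overlapped. FADS1 rose by 0.25 ± 0.05 (SE, adjusted p = 0.000915). Reads of FADS2 were few. Without E2, FADS2 measured 17.2, 13.1 and 11.7 CPM in sip53 cells and 8.81, 10.7 and 9.41 CPM in siControl cells. With E2 it measured 16.1, 13.2 and 13.8 CPM in sip53 cells and 7.72, 12.3 and 10.9 CPM in siControl cells at 2 h, then 9.16, 10.9 and 14.3 CPM in sip53 cells and 9.74, 9.14 and 11.9 CPM in siControl cells at 8 h. The arms were apart at 0 and 2 h and overlapped at 8 h. FADS2 rose by 0.39 ± 0.12 (SE, adjusted p = 0.014), with an adjusted p of 0.0517 when the length and GC trend was removed. FADS1 and FADS2 overlap on opposite strands, and FADS2 shares exon sequence with FEN1, so the FADS2 value is uncertain. ACSL3 activates long chains with CoA. ACSL3 had 265, 259.6 and 246 CPM in sip53 cells at 0 h, against 253, 251 and 252 CPM in siControl cells. The values at 2 h were 242, 258 and 265 CPM in sip53 cells and 265, 256 and 264 CPM in siControl cells, and those at 8 h were 204, 237 and 214 CPM in sip53 cells and 227, 221 and 218 CPM in siControl cells. The arms overlapped at each time. ACSL3 had a log2 fold change of -0.01 (95% interval -0.11 to 0.09) and was not called.

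**Figure D4:**
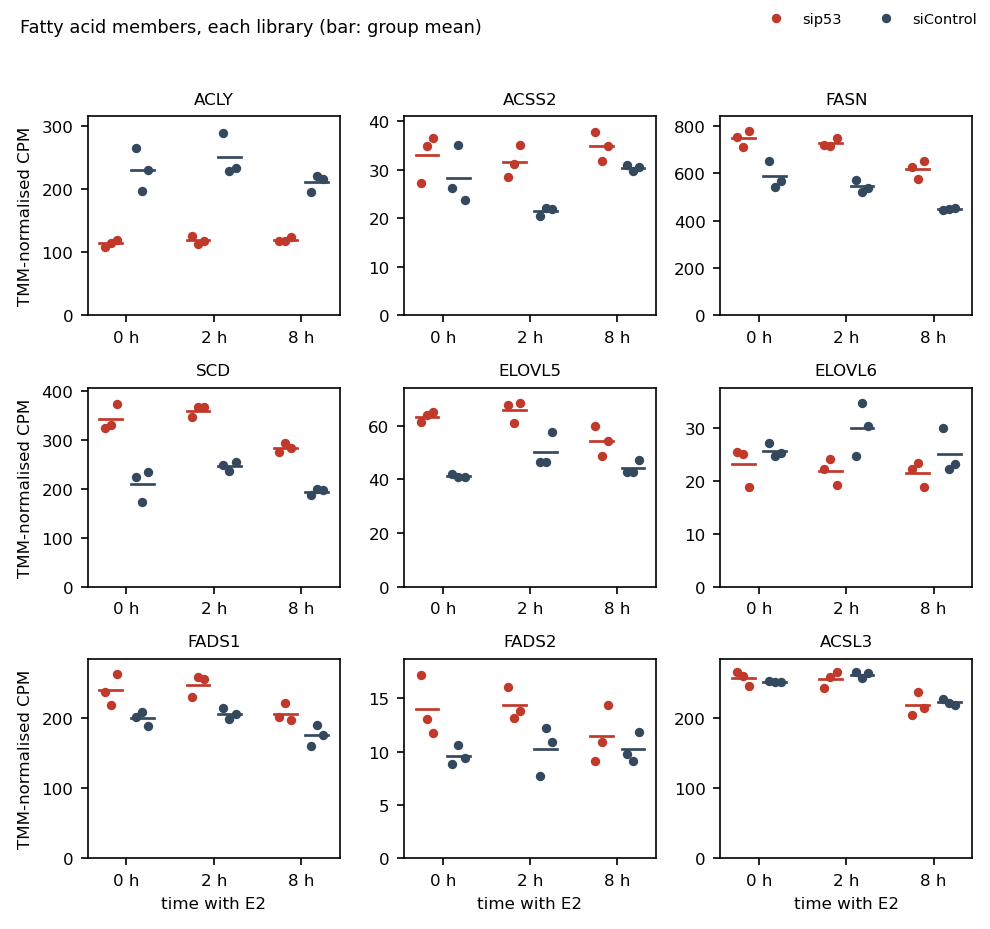
TMM-normalised CPM of the 9 measured fatty acid members in each library (points) by time with E2, with sip53 left of siControl and bars at the group means of 3 libraries. ACLY is lower in every sip53 library, SCD is higher in every sip53 library, and ACSL3 overlaps at each time.

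The knockdown comparisons at single times each compare 6 libraries and gave fewer calls. At 0 h, before E2, 9 sterol members, 2 regulators and 3 fatty acid members were higher and 1 fatty acid member was lower, where 3.98% of all rows were higher and 5.14% lower. The median log2 fold change of the sterol members was 0.44. At 2 h, 12 sterol members, 1 regulator and 4 fatty acid members were higher and 1 was lower, against 4.42% and 7.79% of all rows, and the sterol median was 0.42. At 8 h, 11 sterol members, 1 regulator and 2 fatty acid members were higher and 1 was lower, against 2.81% and 6.14% of all rows, and the sterol median was 0.51. The lower member was ACLY each time, with log2 fold changes of -1.01 at 0 h, -1.07 at 2 h and -0.81 at 8 h. Of the sterol members, 17 of 19 had a positive fold change at all 3 times, a pattern that was not counted over all rows. At each single time 18 of 19 were positive, as were 7629, 7698 and 7815 of the 15318 rows at 0, 2 and 8 h.

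Called at each time were HMGCS1, ACAT2, IDI1, FDPS, FDFT1, SQLE, EBP and DHCR7 among the sterol members, SREBF2 among the regulators, and FASN and SCD among the fatty acid members. HMGCS1 had the largest sterol change at 8 h, 0.92 ± 0.12 (SE, adjusted p = 8.58e-05), and at 0 h IDI1 had 0.88 ± 0.19 (SE, adjusted p = 0.00875) and HMGCS1 0.86 ± 0.12 (SE, adjusted p = 0.000183). Without siControl 0 h replicate 2 these were 0.60 for IDI1 and 0.75 for HMGCS1. At 0 and 8 h CYP51A1 was called as well, and TM7SF2 and NSDHL at 2 and 8 h. MVK and SC5D were called at 2 h alone. ELOVL5 was called at 0 and 2 h, ACSS2 at 2 h alone and SCAP at 0 h alone, but a call at one time and not at another does not show that the effects differ. LSS, PMVK, INSIG1, ELOVL6, FADS1 and FADS2, which were called in the average, were called at none of the 3 times.

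Calls at single times changed with the libraries used, over all rows as well as among the members. When only the 6 libraries compared at 0 h entered the fit, 6 members were called higher, and ACAT2, IDI1, FDPS, SQLE, CYP51A1, SREBF2, SCAP and FASN were no longer called. In that fit the share of all rows called higher was 0.476%, against 3.98% with all groups. At 0 h 9 members were higher without sip53 0 h replicate 3, where 0.866% of all rows were higher. At 2 h 10 members were higher without sip53 2 h replicate 3 and without siControl 2 h replicate 2, where 1.43% and 1.77% of all rows were higher, against 4.42% with all libraries. Without sip53 2 h replicate 1 it was 11 members and 2.92% of all rows. Without siControl 2 h replicate 1, 2 fatty acid members were lower at 2 h, where 7.21% of all rows were lower. SC5D at 2 h and NSDHL at 8 h lost their calls in each of the 6 fits that left out 1 of the libraries compared. The SQLE call at 2 h held in 1 of 6 such fits and was lost without the filter on low counts (adjusted p = 0.116), and the IDI1 call held in 4 of 6 at 2 h and 3 of 6 at 8 h. The calls of MVK and NSDHL at 2 h and of TM7SF2 at 8 h also held in 1 of 6. Those of TM7SF2 and ELOVL5 at 2 h held in 2 of 6, and that of CYP51A1 at 8 h in 4 of 6. Removing the length and GC trend also cost the calls of MVK at 2 h and of TM7SF2 at 2 and 8 h. With the length and GC trend removed, FASN was not called at 0 h (0.24, adjusted p = 0.133), 2 h (0.24, adjusted p = 0.126) or 8 h (0.28, adjusted p = 0.0904).

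Library by library, 10, 15 and 15 sterol members had all 3 sip53 libraries above all 3 siControl libraries at 0, 2 and 8 h, a pattern shown by 12.6%, 15.1% and 14.6% of all rows. None of the 19 lay wholly below at any time. Among the 9 fatty acid members, 5, 6 and 5 lay wholly above, and ACLY wholly below at each time, where 11.9%, 18.1% and 14.9% of all rows lay below. At 2 h ELOVL6 also lay wholly below, at 22.1, 24.1 and 19.1 CPM in sip53 cells, against 24.6, 34.7 and 30.4 CPM in siControl cells.

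**Figure D5:**
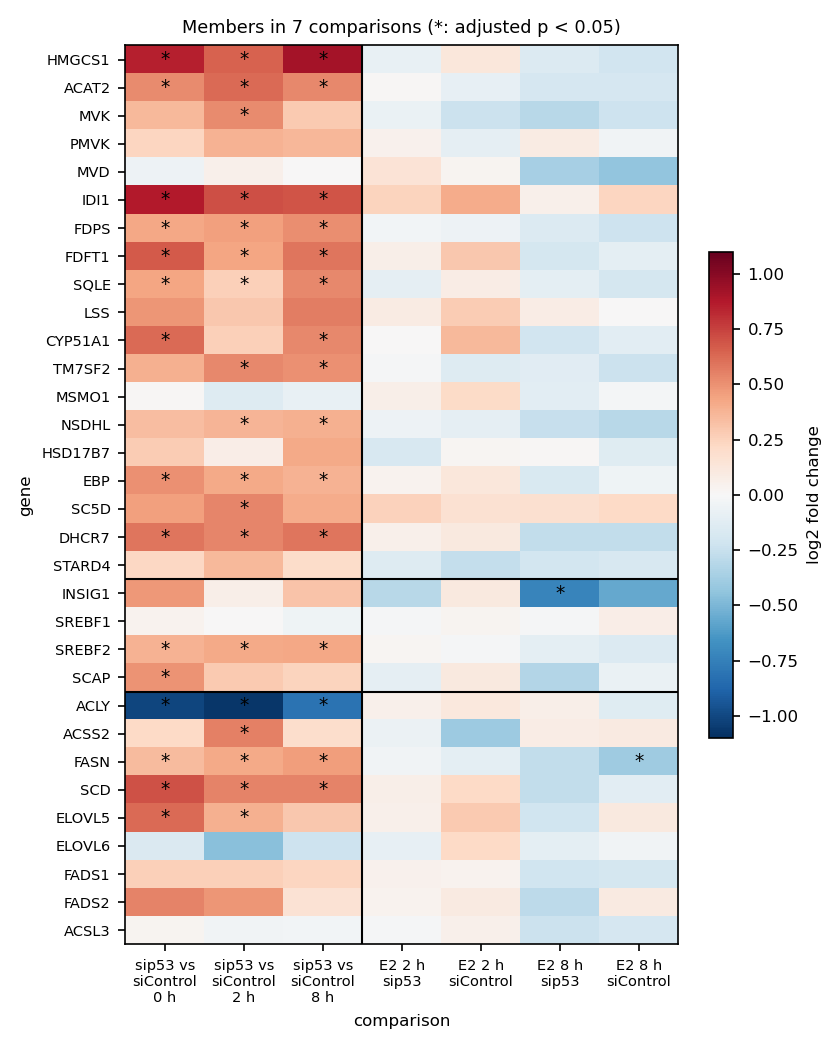
Log2 fold change (colour) of the 32 measured members in 7 comparisons, with sip53 over siControl at 0, 2 and 8 h left of the E2 comparisons within each arm; asterisks mark an adjusted p under 0.05. The 3 knockdown columns hold 15, 18 and 15 asterisks, the 2 h E2 columns none, and the 8 h E2 columns 1 each.

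The E2 comparisons asked whether the lipid genes changed with time in E2 within either arm. No group was kept for 2 or 8 h without E2, so hormone and elapsed time cannot be told apart. After 2 h no member was called in sip53 cells or in siControl cells. Among all rows, 0.268% were called higher and 0.0392% lower in sip53 cells, and 0.228% higher and 0% lower in siControl cells. Averaged over the arms, 0 members were called at 2 h, where 0.881% of rows were higher and 0.464% lower. At an unadjusted p under 0.05 there were 5 members and 2389 of the 15318 rows in that average. DESeq2 called 0 members as well, where 1.56% of its rows were higher and 1.28% lower. In sip53 cells 1 sterol member had all 3 libraries at 2 h above all 3 at 0 h and 1 had them below, as did 8.04% and 7.12% of all rows. In siControl cells 5 sterol and 3 fatty acid members lay wholly above and 1 fatty acid member wholly below, as did 7.46% and 6.24% of all rows. The largest value in the average of the arms was that of IDI1, 0.33 ± 0.14 (SE, adjusted p = 0.248), which did not pass. Without siControl 0 h replicate 1, 1 sterol member was called higher in the average, where 2.13% of all rows were higher.

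After 8 h the members that were called were lower, and none was higher. In sip53 cells INSIG1 was the only member called, where 1.18% of all rows were lower and 1.55% higher. INSIG1 had 75.99, 111 and 85.5 CPM at 8 h, against 199, 118 and 134 CPM at 0 h in sip53 cells, a log2 fold change of -0.73 ± 0.17 (SE, adjusted p = 0.0159). All 3 libraries at 8 h lay below all 3 at 0 h. Without sip53 0 h replicate 1, the highest library, the log2 fold change was -0.48 (adjusted p = 0.135). It was -0.63 (adjusted p = 0.0809) without sip53 8 h replicate 1 and -0.67 (adjusted p = 0.0868) without sip53 8 h replicate 3. INSIG1 in siControl cells had 72.6, 78.5 and 68.1 CPM at 8 h, against 130.3, 85.5 and 107 CPM at 0 h, without overlap, and a log2 fold change of -0.56 ± 0.17 (SE, adjusted p = 0.0769), which did not pass.

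In siControl cells FASN was the only member called at 8 h, where 0.823% of all rows were lower and 1.78% higher. FASN had 445, 449 and 455 CPM at 8 h, against 653, 543 and 568 CPM at 0 h in siControl cells, a log2 fold change of -0.39 ± 0.08 (SE, adjusted p = 0.0118). The 8 h libraries were close together and below all 0 h libraries. Without siControl 0 h replicate 2 a second member, one of the regulators, was called lower, where 0.32% of all rows were lower. Without siControl 8 h replicate 2 the adjusted p of FASN was 0.0572, and taking out the length and GC trend made it 0.101. FASN in sip53 cells had 625, 576 and 653 CPM at 8 h, against 754, 711 and 777 CPM at 0 h, likewise without overlap, and a log2 fold change of -0.27 ± 0.08 (SE, adjusted p = 0.0879), which did not pass.

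Averaged over both arms, 5 of the 32 members were lower at 8 h and 0 were higher, where 4.44% of all rows were lower and 5.16% higher. INSIG1 fell by 0.64 on the log2 scale (SE 0.12, adjusted p = 0.00103) and FASN by 0.33 (SE 0.06, adjusted p = 0.000826). DHCR7 had 108, 120.3 and 113 CPM at 8 h, against 142, 133 and 135 CPM at 0 h in sip53 cells, and 70.04, 69.7 and 86.6 CPM at 8 h, against 94.8, 87.8 and 90.4 CPM at 0 h in siControl cells. All 8 h libraries of DHCR7 were below the 0 h libraries of their arm, and the averaged value was -0.27 ± 0.07 (SE, adjusted p = 0.0173). NSDHL had 83.5, 75.5 and 71.8 CPM at 8 h, against 84.1, 89.8 and 101 CPM at 0 h in sip53 cells, and 57.2, 59.3 and 59.5 CPM at 8 h, against 85.8, 69.7 and 61.3 CPM at 0 h in siControl cells, again without overlap in either arm, at -0.28 ± 0.08 (SE, adjusted p = 0.0335). ACSL3 had 204, 237 and 214 CPM at 8 h, against 265, 259.6 and 246 CPM at 0 h in sip53 cells, and 227, 221 and 218 CPM at 8 h, against 253, 251 and 252 CPM at 0 h in siControl cells, without overlap, at -0.21 ± 0.06 (SE, adjusted p = 0.0231). The 2 h and 8 h comparisons share their 0 h libraries. In sip53 cells 4 sterol members, 2 regulators and 4 fatty acid members had all 3 libraries at 8 h below all 3 at 0 h, and 0 members lay wholly above, where 9.28% of all rows lay below and 10.3% above. In siControl cells 5 sterol members, 1 regulator and 2 fatty acid members lay wholly below and 1 fatty acid member wholly above, where 8.89% of all rows lay below and 10.5% above.

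Of the 19 sterol members, 15 had a negative log2 fold change at 8 h in the average of the arms, with a median of -0.17, and 2 were called. For the fatty acid members 8 of 9 were negative, with a median of -0.10. Over all rows 7808 of 15318 were negative, with a median of -0.01. The count of 5 ranged from 2 without siControl 8 h replicate 2, where 2.74% of all rows were lower, to 8 without siControl 0 h replicate 2, where 3.4% were lower, and was 3 without sip53 0 h replicate 2, sip53 8 h replicate 3 or siControl 8 h replicate 1. In the fits with a count of 3, in the order named, 3.41%, 2.99% and 3.81% of all rows were lower. INSIG1 and FASN passed in each of the 12 fits with 1 library left out. NSDHL kept its call in only 4 of those 12 fits, ACSL3 in 7 and DHCR7 in 10. With only the groups compared, the edgeR adjusted p was 0.0639 for NSDHL and 0.0516 for ACSL3. Without the filter on low counts it was 0.0988 for ACSL3.

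Whether the E2 response differed between the arms was tested directly, as the sip53 response minus the siControl response. At 2 h 0 members and 0 of the 15318 rows that passed the filter were called in edgeR, and 451 rows including 0 members had an unadjusted p under 0.05. DESeq2 called 0 members and 1 of 26221 rows at 2 h. Without the filter on low counts, edgeR called 14 rows higher and 22 lower at 2 h, of 26224. At 8 h DESeq2 called 0 members and 2 of 26221 rows, and edgeR without the filter called 29 rows higher and 25 lower. With the filter, 0 members and 0 rows were called in edgeR at 8 h, and 583 rows including 1 member had an unadjusted p under 0.05. That member was ELOVL5, at -0.33 ± 0.16 (SE, adjusted p = 0.999), named after its value was seen. For INSIG1 the difference at 8 h was -0.17 (95% interval -0.66 to 0.32), and for FASN it was 0.11 (95% interval -0.13 to 0.36). For HMGCS1 it was 0.06 (95% interval -0.28 to 0.40).

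Neighbouring pathways were read in the averaged knockdown comparison from lists of their genes. In transport, storage and export of sterols 3 of 15 tested genes rose and 1 fell, with a median of 0.01. These counts stand beside 16.1% higher and 18.5% lower over all rows, as do those of the lists that follow. NPC1, which lets cholesterol out of lysosomes, rose by 0.23, STARD3 by 0.34 and GRAMD1A by 0.24, while OSBP, a sterol exchanger of the Golgi, fell by 0.93. Of 11 genes for SREBP processing 4 rose and 1 fell (median 0.05). LPIN1, a phosphatidate phosphatase and SREBP target, rose by 0.35. ERLIN1 (0.26) and RNF139 (0.21) also rose, which act in endoplasmic reticulum degradation, and FAF2 of the same machinery fell by 0.17. In the isoprenoid branch and other sterol steps, 3 of 13 rose and 2 fell (median 0.05). Those that rose include ERG28 (0.51), known in yeast as a scaffold of sterol enzymes, and NUS1 (0.23), a subunit of the dolichol enzyme. PDSS1, of coenzyme Q synthesis, fell by 0.67, and LBR, a nuclear envelope protein that is also a sterol reductase, fell by 0.44.

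In elongation, activation and NADPH supply 11 of 24 tested genes rose and 3 fell, with a median of 0.20. SLC25A1, the carrier that exports citrate to the cytosol where ACLY acts, rose by 0.68 ± 0.08 (SE, adjusted p = 1.03e-06). IDH1 (0.41) and PGD (0.36), which make NADPH, and TKT (0.35), of the pentose phosphate pathway, rose as well, and TECR, a reductase of the elongation cycle, rose by 0.35. The 3 that fell were ELOVL4 (-0.45), ELOVL7 (-0.33) and HSD17B12 (-0.24), all of chain elongation. In glycerolipid synthesis 2 of 13 genes rose, AGPAT2 (0.25) and AGPAT3 (0.17), and 3 fell, GPAT3 (-0.52), LPIN2 (-0.40) and AGPAT5 (-0.23). In fatty acid oxidation 3 of 12 rose, HADHB (0.50), CPT1A (0.32) and ECI1 (0.21), and ACADM fell by 0.43.

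The same lists were read under E2. In the average of both arms LPIN1 alone was higher at 2 h, by 0.36 ± 0.07 (SE, adjusted p = 0.0114). It was 1 of 11 tested genes for SREBP processing, where 0.881% of all rows were higher. At 8 h MID1IP1, a partner of acetyl-CoA carboxylase, was higher by 0.74 ± 0.08 (SE, adjusted p = 1.24e-06), and HACD2, an elongation dehydratase, by 0.51 ± 0.07 (SE, adjusted p = 3.81e-05). Lower at 8 h were NR1H2 (-0.93), MLXIPL (-0.71), CPT1B (-0.54), DGAT1 (-0.50), GGPS1 (-0.35), FAF2 (-0.33) and CPT1A (-0.21). By list, 1 of 15 genes of sterol transport, 1 of 11 of SREBP processing and 1 of 13 of the isoprenoid branch were lower. In glycerolipid synthesis 1 of 13 was lower, and in fatty acid oxidation 2 of 12. In elongation, activation and NADPH supply 2 of 24 were higher and 1 lower. Over all rows 5.16% were higher and 4.44% lower.

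Within groups, the sterol members shared only part of their replicate variation. The deviation of each library from its group mean was correlated over the 18 libraries between a member and the mean of the other sterol members, as a description in which all points share libraries and depth. The median Pearson r was 0.336 for the sterol members, from -0.626 for TM7SF2 to 0.87 for CYP51A1. It was 0.052 for the fatty acid members, -0.005 for the regulators and 0.091 for 9847 other genes. INSIG1 (0.746) and SCD (0.702) followed the sterol mean more closely than ACSS2 (-0.656). Without siControl 0 h replicate 2 the median was 0.214 for the sterol members, 0.053 for the fatty acid members, 0.254 for the regulators and 0.063 for other genes, so the order of sterol members and regulators turned on that library. The 10 other genes closest to the sterol mean included MSN (0.951), RAP2A (0.943) and KIF20A (0.928), and the range of the 10 was 0.883 to 0.951.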

How the data were processed

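RNA of 18 PEO1 libraries was sequenced from the 3' end of transcripts. The authors deposited expected counts per row (estimated by RSEM 1.3.3 on hg19, with Bowtie2, cutadapt and MultiQC also listed, per the submitters' processing notes); the sources used here do not say whether counting used the strand. Rounding to whole numbers moved 0 values. Rows were named through GENCODE transcripts, 52673 from a single gene and 267 by majority; rows without a name held 0.635% of counts. Totals were 7542457 to 11307199 counts, and replicates varied with a biological coefficient of variation of 15.2%. Groups came from the sample labels.

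Rows passing filterByExpr (minimum count 10) were scaled by TMM and tested over all 18 libraries in 1 model of the 6 groups with edgeR 4.0.16 (R 4.3.3, limma 3.58.1), two-sided, with Benjamini-Hochberg adjustment. SE is the fold change divided by the square root of the F statistic, and intervals are at 95%. Alternatives were other scalings, no filter, a replicate block, removal of a length and GC trend, DESeq2 1.42.0, only the groups compared, and each library left out. All members could be named, and those with the 12 smallest adjusted p values in the averaged knockdown, those called under E2, and called regulators and fatty acid members were given by library; other pathway genes were named up to 6 per direction and list. Members and lists were chosen with earlier results of these data known. The level of the targeted gene is not reported here.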

Additional observations from a re-analysis of the deposited data

How the results depend on the processing

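Of 384 recomputed values for 25 results, 351 were taken as the same and 33 as moved. Small differences in a count were taken as the same. Members higher in sip53 cells at 8 h numbered 14, and 10 to 13 with 1 library left out, with 0 of 6 such fits taken as moved. Counts that were 0 with and without the change were also among the same. Members lower in sip53 cells on average numbered 1 with the length and GC trend removed (2 otherwise), where 13.7% of all rows were lower (18.5% otherwise). With only the groups compared, members higher at 0 h numbered 6 (14 otherwise). The share of all rows called higher at 0 h was then 0.476% (3.98% otherwise). Members lower at 2 h in that setting numbered 2 (1 otherwise), where 12.1% of all rows were lower (7.79% otherwise). Members lower after 8 h of E2 in sip53 cells (1 otherwise) numbered 3 in DESeq2 and 0 with only the groups compared. In those settings 2.12% and 0.603% of all rows were lower, against 1.18% otherwise. In siControl cells (1 otherwise) members lower numbered 2 without the filter, 0 with the trend removed, 2 in DESeq2 and 0 with only the groups compared. In the same order 1.29%, 0.934%, 1.85% and 0.282% of all rows were lower, against 0.823% otherwise. Averaged over both arms (5 otherwise) members lower numbered 9 in DESeq2 and 3 with only the groups compared. The share of all rows lower was 5.56% and 3.19% in these settings, against 4.44% otherwise. The cause was not tested.

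With 1 library left out, the averaged knockdown gave 22 to 25 higher and 1 to 2 lower members. In those fits 13.3% to 17.1% of all rows were higher and 16.3% to 18.8% lower. Single times gave 9 to 17 higher members at 0 h, 10 to 14 higher and 1 to 2 lower at 2 h, and 10 to 13 higher at 8 h. The share of all rows higher was 0.866% to 6.7% at 0 h, 1.43% to 5.02% at 2 h and 0.988% to 2.62% at 8 h. At 2 h 3.73% to 7.21% of all rows were lower. The E2 comparisons gave 0 to 1 higher member at 2 h in both arms, where 0.516% to 2.13% of all rows were higher. At 8 h they gave 0 to 1 lower in sip53 cells, 0 to 2 in siControl cells and 2 to 8 in both arms. The share of all rows lower was 0.44% to 0.999%, 0.223% to 1.89% and 2.74% to 5.23% in that order. The median sterol correlation was 0.214 without siControl 0 h replicate 2, against 0.336.

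Replicate numbers did not pair the libraries: 45 same-numbered pairs correlated at -0.35 to 0.391 (median 0.025), with 10 over 0.1. With the replicate block, members higher at 2 h numbered 16 (17 without), where 4.46% of all rows were higher (4.42% without). All other member counts were equal, and SC5D at 2 h was at adjusted p = 0.0573 in edgeR. Length and GC content were known for 97.6% of the genes tested. Rows with few counts, such as MVD, LSS and FADS2, have wide intervals at this depth.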
